A study of Homo sapiens with 8 samples.

Results

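The transcripts of 10 MAP kinase phosphatases, DUSP1, DUSP2, DUSP4, DUSP5, DUSP6, DUSP7, DUSP8, DUSP9, DUSP10 and DUSP16, were examined in A549 cells, a line established from a human lung carcinoma. They were picked by gene symbol, as the family of dedicated dual-specificity phosphatases of the MAP kinases, and all 10 were found among the 19046 genes fitted. Total RNA was hybridised to 8 one-colour whole-genome arrays in 2 series of 4. In one series, cells received vehicle or 1.25, 5 or 20 µg/mL of EEDS, an ethanol extract of the seeds of Descurainia sophia. In the other, they received vehicle or 3.75, 15 or 60 nM of helveticoside, a cardiac glycoside that the study detected in EEDS, and cardiac glycosides inhibit the sodium pump of the plasma membrane. Each array held RNA pooled from 3 cultures, so each dose was measured once and a single dose could not be tested against its control. The labels give an incubation of 48 h with the agent and the study's methods give 24 h. Only 1 cell line was used, and whether fewer surviving cells or less RNA per cell contributed cannot be told apart in such bulk RNA.

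MAP kinase phosphatases remove the phosphates from both the threonine and the tyrosine of the activation loop of ERK, JNK and p38, and so switch these kinases off. Several of their genes are themselves transcribed in response to the kinases they inactivate, which makes the family a standard example of negative feedback, and the transcripts of the inducible members are short-lived. The family falls into inducible nuclear enzymes (DUSP1, DUSP2, DUSP4 and DUSP5), cytoplasmic enzymes that prefer ERK (DUSP6, DUSP7 and DUSP9) and enzymes that prefer JNK and p38 (DUSP8, DUSP10 and DUSP16).

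The cells carried the epithelial background of the line, since all 9 A549 and epithelial markers examined, among them KRT8, KRT18, EPCAM and AKR1B10, were well above background on all 8 arrays. With dose, 4 of these 9 fell with EEDS and 3 with helveticoside, where 7.85% and 5.8% of all genes did. CDH1 (E-cadherin) had log2 ratios of −2.70 at 20 µg/mL and −2.71 at 60 nM (limma adjusted p = 0.0364 and 0.0452). Of 7 alveolar type II markers, 4 were well above background on no array, SFTPB and NKX2-1 among them, whereas ABCA3, a lipid transporter of lamellar bodies, was well above background on all 8 and fell with both agents, with log2 ratios of −3.18 at 20 µg/mL and −3.03 at 60 nM (limma adjusted p = 0.0145 and 0.0185). The summed normalized signal of this list went from 2361 in the EEDS control to 379 at 20 µg/mL and from 2004 in the helveticoside control to 374 at 60 nM. ABCA3 made up most of this sum, at up to 11.11 on the log2 scale, and the next gene, SFTPC, reached 6.48. The median slope of the list was −0.001 with EEDS and −0.004 with helveticoside. SFTPA1, well above background on no array, had a rising slope of 0.42 with helveticoside (limma adjusted p = 0.0390). Of 12 markers of other cell types, 6 were well above background on no array, including PECAM1 and CD3E, while PTPRC, CD14, CDH5 and COL1A1 were well above background on all 8. The summed normalized signal of the other-cell markers was 3502, 3943, 1223 and 1905 from vehicle to the top dose of EEDS and 3199, 4341, 1714 and 1420 with helveticoside. None of the 12 passed the trend test with either agent, and their median slope was 0.02 with EEDS and 0.05 with helveticoside. CD14, the brightest term of the sum at up to 11.76 on the log2 scale, had slopes of −0.69 and −0.86 (limma adjusted p = 0.167 and 0.122). The part of these shifts in the results was not tested. Between 54.5 and 64.9% of probes per array were well above background. On each slide the control, the lowest, the middle and the top dose followed one another in position, so position on the slide and dose cannot be told apart, nor can the agent and the array series.

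Promoter sequence was taken from RefSeq (GRCh38.p14) for 8 members with an entry, 10 windows in all (DUSP4 and DUSP5 were not searched), each read over the 250 bases before the annotated start on both strands. The windows of DUSP1, DUSP8 and DUSP6 are shown as the last 200 of those bases. DUSP1 and DUSP6 are shown because their transcripts rose with both agents. DUSP8 is shown because its window, as that of DUSP1, holds the cyclic AMP response element (CRE). Capitals mark the CRE (TGACGTCA) or its half-site (TGACG on either strand, which the CRE contains) and the TATA box (TATAAA). The windows are chr5:172771196-172771395 for DUSP1, chr11:1572272-1572471 for DUSP8 and chr12:89352502-89352701 for DUSP6, all on the minus strand.
DUSP1: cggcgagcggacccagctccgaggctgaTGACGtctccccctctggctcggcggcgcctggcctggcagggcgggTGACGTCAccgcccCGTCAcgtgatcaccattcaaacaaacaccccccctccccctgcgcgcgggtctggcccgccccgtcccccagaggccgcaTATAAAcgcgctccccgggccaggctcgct
DUSP8: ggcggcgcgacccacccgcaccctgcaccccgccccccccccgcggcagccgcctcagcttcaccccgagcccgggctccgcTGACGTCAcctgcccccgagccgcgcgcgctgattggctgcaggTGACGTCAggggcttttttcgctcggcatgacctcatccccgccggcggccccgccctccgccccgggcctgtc
DUSP6: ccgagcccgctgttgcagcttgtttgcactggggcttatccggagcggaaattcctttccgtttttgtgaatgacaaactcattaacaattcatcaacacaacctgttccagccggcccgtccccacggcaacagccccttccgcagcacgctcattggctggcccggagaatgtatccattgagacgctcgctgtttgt

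DUSP1 holds 1 full CRE, 118 to 125 bases before its start, and DUSP8 holds 2, while the windows of DUSP2, DUSP6, DUSP7, DUSP9, DUSP10 and DUSP16 hold none. The full CRE is found in 1.65% of all 35116 windows of this length and the half-site in 21.2%. The half-site was matched in 2 of the 10 member windows, those of DUSP1 and DUSP8, which is about the share of all windows. Of the 8 members searched, DUSP1 was the one with a TATA box, 25 to 30 bases before the start, against 10.7% of all windows. The AP-1 site (TGAGTCA, 4.20% of all windows) and the ETS core (CCGGAA, 14.5%) were matched in no member window. Nor was the serum response element, searched as the CArG box, a pattern of CC, a run of A or T, and GG (1.16%). The GC box (GGGCGG) was matched in 9 of the 10 windows, all but that of DUSP6, against 42.6% of all windows. These matches describe letters, not bound sites.

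Which of the phosphatases responded to EEDS, and did helveticoside move the same ones? In both series DUSP1, DUSP5, DUSP6 and DUSP10 rose with dose, and no member fell. At the top doses DUSP10 stood 8.94-fold above vehicle with EEDS and at least 5.24-fold with helveticoside, DUSP1 6.87-fold and 6.22-fold, DUSP6 5.33-fold and 3.59-fold, and DUSP5 3.95-fold and 3.59-fold. The risers come from all 3 classes, with a nuclear pair, an ERK-selective cytoplasmic enzyme and a JNK and p38 phosphatase among them. DUSP4, the nearest relative of DUSP1 in location and substrates, stayed within 1.37-fold of vehicle at every dose.

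**Figure D1:**
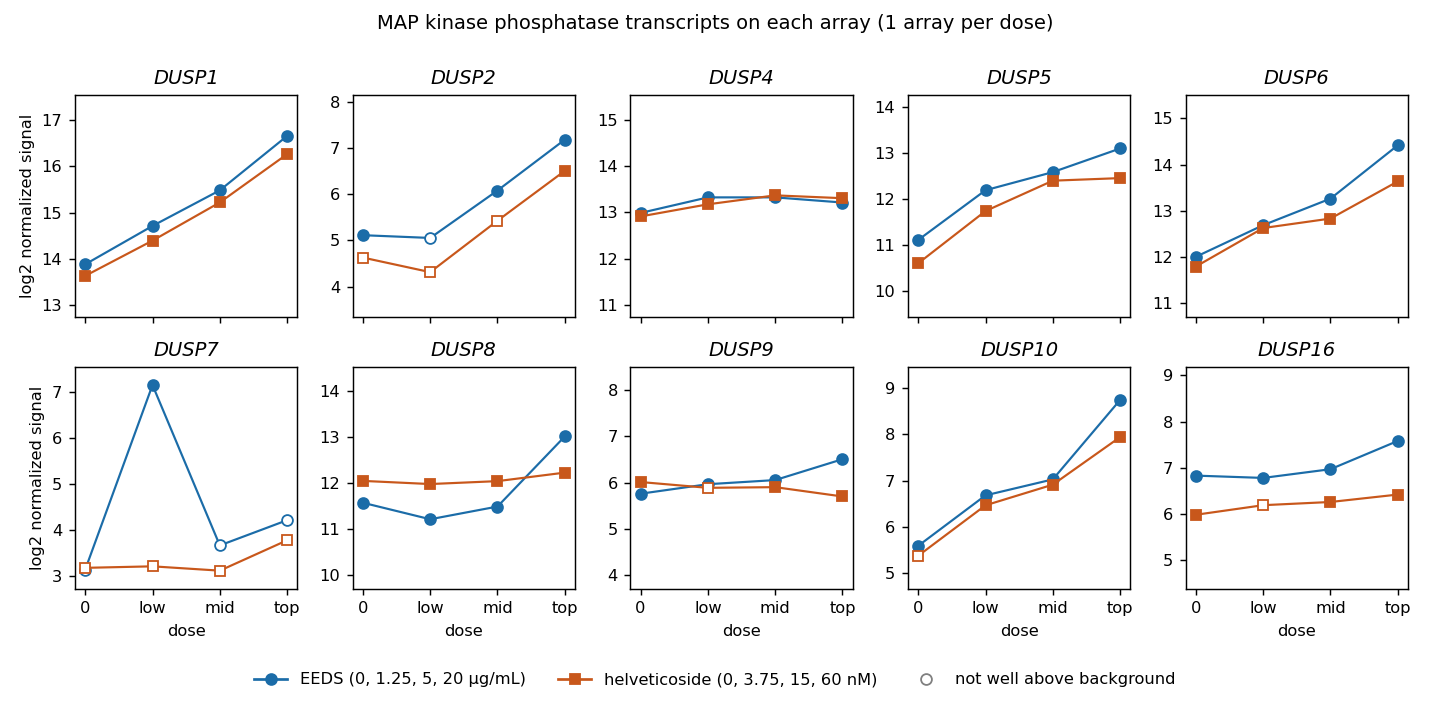
Log2 normalized signal (y axis, the same span in every panel) of each MAP kinase phosphatase on the 8 arrays, against dose (x axis), with circles for EEDS, squares for helveticoside and open symbols where the probe was not well above background; 1 array per dose, so no error bar can be drawn. DUSP1, DUSP5, DUSP6 and DUSP10 climb in both series, DUSP4 is nearly level, and DUSP7 is open on 7 of 8 arrays.

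Values below are log2 of the normalized array signal unless a ratio is named. Changes are read between arrays for one probe, and no test compares levels between genes. Where a gene is called bright or dim, or signals are summed, this describes probe signal only. The dose trend was fitted with limma as a straight line over the 4 arrays of a series, with vehicle, lowest, middle and top dose as steps, and both series shared one estimate of the spread from 4 residual degrees of freedom. A slope is therefore a change in log2 units per dose step, and its p-value was adjusted by Benjamini-Hochberg over all genes.

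Among the inducible nuclear phosphatases, DUSP1, which acts on p38, JNK and ERK and is an immediate early gene, had levels of 13.88, 14.71, 15.48 and 16.66 over the EEDS series from vehicle to 20 µg/mL. Over the helveticoside series the levels were 13.63, 14.39, 15.22 and 16.27. Every treated array lay above both vehicle arrays, and the order followed the dose in both series. The slope was 0.91 ± 0.05 (SE) with EEDS (limma adjusted p = 0.0129) and 0.87 ± 0.05 with helveticoside (limma adjusted p = 0.0165). The probe of DUSP1 is printed 10 times on each array, and the standard deviation of log2 signal over these spots was between 0.056 and 0.083, which is the printing and scanning error within an array and not that between cultures. The smallest step between neighbouring doses, 0.76, was larger than this.

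DUSP5, a nuclear phosphatase specific for ERK, had levels of 11.11, 12.19, 12.58 and 13.09 over the EEDS series. Over the helveticoside series they were 10.61, 11.74, 12.40 and 12.45. The largest step was the first in both series, 1.08 at 1.25 µg/mL of EEDS and 1.13 at 3.75 nM of helveticoside. From 15 to 60 nM the signal moved by 0.06 only, less than the scanner's own error of about 0.20 for a log2 ratio, whereas from 5 to 20 µg/mL of EEDS it rose by a further 0.51. The slopes were 0.63 ± 0.13 with EEDS (limma adjusted p = 0.0318) and 0.62 ± 0.13 with helveticoside (limma adjusted p = 0.0395). With log dose as predictor neither trend of DUSP5 passed the threshold (limma adjusted p = 0.0587 and 0.0763).

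DUSP2, an inducible nuclear phosphatase best known from activated lymphocytes, was dim. Its levels were 5.11, 5.05, 6.08 and 7.18 with EEDS, where the array at 1.25 µg/mL was not well above background. With helveticoside they were 4.63, 4.31, 5.43 and 6.51, where only the 60 nM array was well above background. Both series therefore held their highest value at the top dose, 4.20-fold above vehicle with EEDS and at least 1.94-fold with helveticoside. That bound applies to the main processing only. The log2 ratio at 60 nM was 0.69 with the signal as scanned, 0.74 with normexp and 0.66 with the authors' processed values, which are all below it. The slopes, 0.72 ± 0.20 with EEDS (limma adjusted p = 0.0670) and 0.67 ± 0.20 with helveticoside (limma adjusted p = 0.0918), did not pass the threshold. With the signal as scanned and no background subtracted, the log2 ratio at 20 µg/mL was 0.88 instead of 2.07, yet the EEDS trend passed the threshold in that setting (limma adjusted p = 0.0259), as it did with normexp (0.0256), with the authors' processed values (0.00997) and with log dose as predictor (0.0314). The helveticoside trend of DUSP2 passed with log dose (limma adjusted p = 0.0425) but not in the other three of these settings (0.0661 to 0.195).

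DUSP4, which acts on the same kinases as DUSP1 in the nucleus, was bright on all arrays and nearly level. Its levels were 12.99, 13.32, 13.32 and 13.21 with EEDS and 12.91, 13.17, 13.37 and 13.31 with helveticoside. All 6 treated arrays lay above both vehicle arrays by 0.23 to 0.46 as ratios to their own vehicle, where the scanner error of a ratio was about 0.20, and the slopes of 0.07 ± 0.06 with EEDS (limma adjusted p = 0.553) and 0.14 ± 0.06 with helveticoside (limma adjusted p = 0.222) did not pass the threshold.

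Of the cytoplasmic ERK-selective phosphatases, DUSP6 was the bright one. It removes phosphate from ERK almost exclusively and is a customary readout of ERK activity. Its levels were 12.00, 12.69, 13.26 and 14.42 with EEDS and 11.79, 12.62, 12.83 and 13.63 with helveticoside. Treated and vehicle arrays did not overlap, and the signal rose at every step in both series. The slope was 0.78 ± 0.08 with EEDS (limma adjusted p = 0.0132) and 0.57 ± 0.08 with helveticoside (limma adjusted p = 0.0220).

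DUSP9, its close relative, was dim, with levels of 5.76, 5.97, 6.06 and 6.51 with EEDS and 6.01, 5.89, 5.90 and 5.70 with helveticoside, where the 3.75 nM array was not well above background. The ratios were above vehicle at all 3 EEDS doses and below it at all 3 helveticoside doses, although with the signal as scanned, with normexp correction or with the authors' processed values the 60 nM ratio was above vehicle. Its slopes were 0.23 ± 0.08 (limma adjusted p = 0.0942) and −0.09 ± 0.08 (limma adjusted p = 0.510), neither past the threshold. DUSP7, which acts on ERK, was not well above background on 7 of 8 arrays. The exception was the array at 1.25 µg/mL of EEDS, where a single spot read 7.14 against 3.12 to 4.22 on the other arrays, at least 5.99-fold above vehicle. No dose dependence could be read from such a probe.

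Of the phosphatases of JNK and p38, DUSP10 rose with both agents. Its levels were 5.59, 6.68, 7.03 and 8.75 with EEDS and 5.37, 6.46, 6.91 and 7.94 with helveticoside, where the vehicle array was not well above background. Treated and vehicle arrays did not overlap, and the last step was the largest with EEDS, 1.72 from 5 to 20 µg/mL. With helveticoside the ratios were at least 1.88-fold, 2.56-fold and 5.24-fold from the lowest to the top dose. The slopes were 0.98 ± 0.13 with EEDS (limma adjusted p = 0.0165) and 0.82 ± 0.13 with helveticoside (limma adjusted p = 0.0266). Being dim, DUSP10 was sensitive to the background: with the signal as scanned, the log2 ratio at 20 µg/mL was 1.95 instead of 3.16 and that at 60 nM was 1.36 instead of 2.57. With the authors' processed values the log2 ratio at 60 nM was 1.19, and the helveticoside slope of 0.39 did not pass the threshold (limma adjusted p = 0.187).

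The 3 probes of DUSP8 gave different patterns. The brightest probe read 11.57, 11.22, 11.49 and 13.01 over the EEDS series and 12.05, 11.98, 12.04 and 12.23 over the helveticoside series. On this probe the ratio at 20 µg/mL was 2.71-fold, the lower EEDS doses lay below vehicle, and the slopes of 0.46 ± 0.19 (limma adjusted p = 0.153) and 0.06 ± 0.19 (limma adjusted p = 0.930) did not pass the threshold. The other two probes lay above vehicle at every dose of both agents. Probe A_32_P98298, well above background on all 8 arrays, gave log2 ratios of 0.15, 0.21 and 0.64 with EEDS and of 0.48, 0.51 and 0.58 with helveticoside. Probe A_33_P3263625 was not well above background on 5 of 8 arrays, the vehicle arrays among them, and stood at least 6.32-fold above vehicle at 20 µg/mL and at least 1.59-fold at 60 nM. All 3 probes were thus highest at 20 µg/mL within the EEDS series, and with their mean in place of the brightest probe the EEDS trend of DUSP8 passed the threshold (limma adjusted p = 0.0416).

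**Figure D2:**
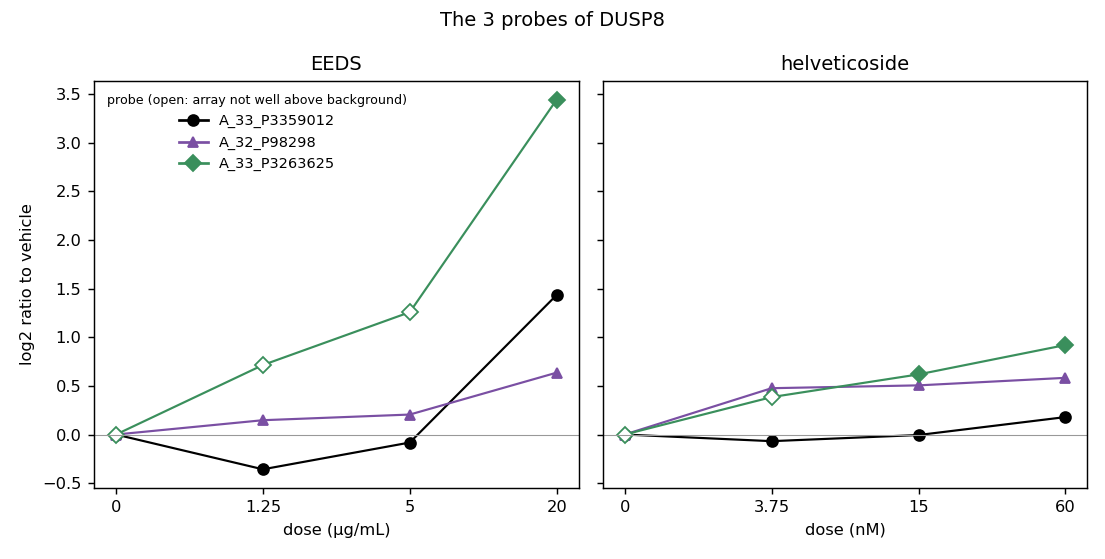
Log2 ratio to vehicle (y axis) of the 3 probes of DUSP8 against dose (x axis) of EEDS or helveticoside, with open symbols on arrays where the probe was not well above background; 1 array per dose. At 20 µg/mL of EEDS and at 60 nM of helveticoside the brightest probe read 1.44 and 0.18. Probe A_32_P98298 read 0.64 and 0.58, and probe A_33_P3263625 read 3.45 and 0.92. The last probe was not well above background on either vehicle array, so its ratios are bounds of at least 6.32-fold and 1.59-fold.

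DUSP16 moved little. Its levels were 6.83, 6.78, 6.97 and 7.58 with EEDS and 5.98, 6.19, 6.26 and 6.42 with helveticoside, where the 3.75 nM array was not well above background. The vehicle arrays of both series differed by 0.85, more than the log2 ratio of 0.75 at 20 µg/mL. The slopes were 0.24 ± 0.09 (limma adjusted p = 0.118) and 0.14 ± 0.09 (limma adjusted p = 0.379).

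**Figure D3:**
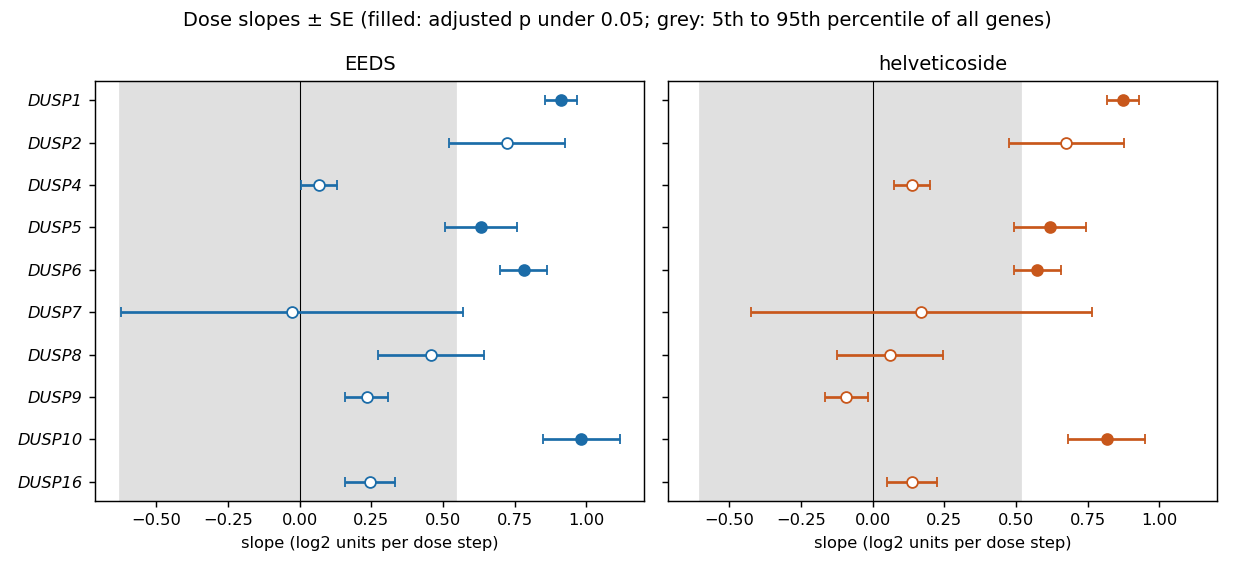
Slope in log2 units per dose step (x axis) with its SE from the limma fit over 8 arrays for each MAP kinase phosphatase (y axis), with filled points where the adjusted p was under 0.05 and a grey band for the 5th to 95th percentile of all 19046 genes. DUSP1, DUSP5, DUSP6 and DUSP10 are filled with both agents and lie above the band, which ends at 0.55 with EEDS and 0.52 with helveticoside.

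Counted over the family, 4 of 10 members rose with EEDS where 7.27% of all genes did, and the same 4 rose with helveticoside where 5.48% of all genes did. No member fell, where 7.85% of all genes fell with EEDS and 5.8% with helveticoside. The median slope of the members was 0.55 with EEDS and 0.37 with helveticoside, against 0.01 and −0.01 over all genes. The levels of 5 members rose at every step of the EEDS series, namely DUSP1, DUSP5, DUSP6, DUSP9 and DUSP10, against 19.3% of all genes, and those of 5 in the helveticoside series, with DUSP16 in place of DUSP9, against 12.3% of all genes. These calls rested on single arrays. Without the EEDS vehicle array or the 20 µg/mL array, the EEDS trend was called for 0 members and for 0 of all genes, while 6 and 4 members had an unadjusted limma p under 0.05. The helveticoside trend was called for 0 members without the 15 or the 60 nM array (5 and 4 at an unadjusted limma p under 0.05), for 1 without its vehicle array or the 1.25 µg/mL EEDS array and for 2 without the 3.75 nM array.

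Ratios above 2-fold occurred from the lowest doses on. At 1.25 µg/mL of EEDS, 3 of 10 members (DUSP5, DUSP7 and DUSP10) were more than 2-fold above vehicle, against 4.22% of all genes. At 3.75 nM of helveticoside, 2 of 10 (DUSP5 and DUSP10) were, against 3.38% of all genes. DUSP10 was not well above background on the helveticoside vehicle array, and its bound at 3.75 nM, at least 1.88-fold, does not establish 2-fold. At the middle doses DUSP1 and DUSP6 joined DUSP5 and DUSP10, which made 4 of 10 members with either agent, against 7.33% of all genes at 5 µg/mL and 7.08% at 15 nM.

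At 20 µg/mL of EEDS, 7 of 10 members were more than 2-fold above vehicle, against 13.3% of all genes, and the 7 included DUSP7, which was not well above background on either array. At 60 nM of helveticoside, 5 of 10 were (DUSP1, DUSP2, DUSP5, DUSP6 and DUSP10), against 10.8% of all genes. The count takes the ratio as measured, for members and all genes alike. DUSP2 was not well above background on the helveticoside vehicle array, and its bound at 60 nM, at least 1.94-fold, does not establish 2-fold. No member was more than 2-fold below vehicle at any dose, where the share of all genes was 3.66, 8.47 and 14.5% over the rising EEDS doses and 4.31, 8.06 and 12.8% over the rising helveticoside doses. The median log2 ratio of the members was 0.51, 0.75 and 1.71 over the EEDS doses and 0.23, 0.63 and 1.22 over the helveticoside doses, while the median of all genes lay between −0.04 and 0.02. Among the members DUSP4 was lowest at 20 µg/mL with 0.23 and DUSP9 at 60 nM with −0.31.

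**Figure D4:**
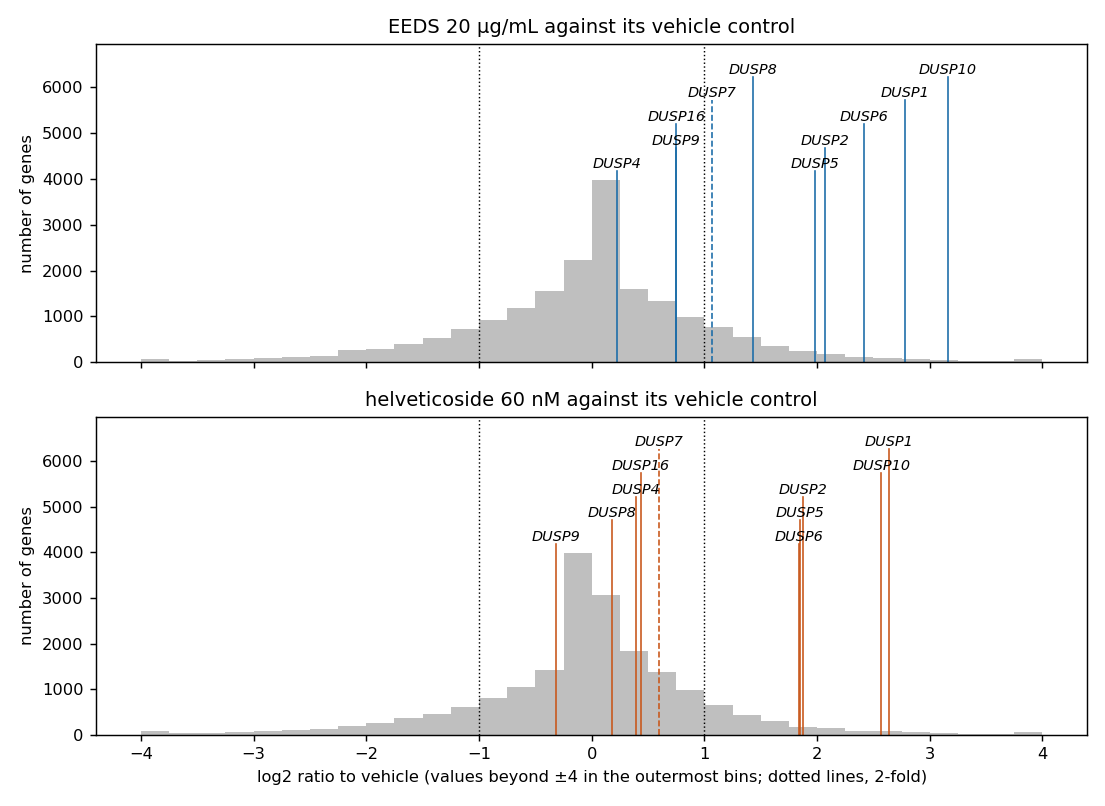
Number of genes (y axis) by log2 ratio to vehicle (x axis) at the top dose of each agent, with vertical lines for the MAP kinase phosphatases, dashed where the treated array was not well above background, and dotted lines at 2-fold; 1 array per dose. DUSP1, DUSP2, DUSP5, DUSP6 and DUSP10 lie to the right of the 2-fold line with both agents, DUSP7 and DUSP8 with EEDS alone. The vehicle array was not well above background for DUSP7 in both series and for DUSP2 and DUSP10 with helveticoside. For DUSP2 with helveticoside the bound is at least 1.94-fold in the main processing.

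The doses of the 2 agents are in different units and were run in different series, so they can only be set side by side. The slope of helveticoside minus that of EEDS was −0.04 ± 0.08 for DUSP1, −0.01 ± 0.18 for DUSP5, −0.21 ± 0.12 for DUSP6, −0.17 ± 0.19 for DUSP10 and −0.40 ± 0.26 for DUSP8. It was most distant from 0 relative to its error for DUSP9, at −0.33 ± 0.11. In the limma fit 0 members passed the threshold for this difference, 0% of all genes did, and 1 member (DUSP9) and 525 of all genes had an unadjusted p under 0.05. With SEs of this size a moderate difference could not have been detected. Between the 2 vehicle arrays, the log2 level of the members in the helveticoside control minus that in the EEDS control ran from −0.85 for DUSP16 to 0.47 for DUSP8, with a median of −0.21, where the standard deviation over all genes was 0.65.

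How did the rest of the MAP kinase system move? Of 11 genes of the ERK output list, transcripts known to be driven by ERK, 5 rose with EEDS and 4 with helveticoside. The shares of all genes were 7.27% and 5.48%. None fell in either, where 7.85% and 5.8% of all genes did. FOS, MYC, CCND1, ETV4, ETV5 and EPHA4 passed the threshold with neither agent, and the slopes of ETV4 were −0.26 and −0.15. EPHA2, a receptor tyrosine kinase, reached log2 ratios of 3.48 at 20 µg/mL and 3.07 at 60 nM (limma adjusted p = 0.0132 and 0.0169). FOSL1, an AP-1 subunit, reached 4.51 and 3.98 (limma adjusted p = 0.0140 and 0.0198), and IER3, an early response gene, 1.99 and 1.57 (limma adjusted p = 0.0144 and 0.0250). EGR1, the early growth response factor, reached 9.94 and 7.68, and its trend passed the threshold with EEDS (limma adjusted p = 0.0253) but not with helveticoside (limma adjusted p = 0.0560). The median slope of this list was 0.50 with EEDS and 0.49 with helveticoside.

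Of 6 Sprouty and Spred genes, whose products restrain the RAS to ERK pathway, 1 rose and none fell. It was SPRY4, with log2 ratios of 2.38 at 20 µg/mL and 2.11 at 60 nM (limma adjusted p = 0.0132 and 0.0174). Over all genes, 7.27% rose with EEDS and 5.48% with helveticoside. The median slope of the list was 0.07 with either agent.

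Of 7 MAP kinase kinases, 3 rose and 1 fell, with both agents. Of all genes, 7.27% rose and 7.85% fell with EEDS, and 5.48% and 5.8% with helveticoside. MAP2K3 and MAP2K6 both activate p38, and they moved in opposite directions. MAP2K3 reached log2 ratios of 3.02 at 20 µg/mL and 2.19 at 60 nM (limma adjusted p = 0.0161 and 0.0291), whereas MAP2K6 reached −3.73 and −2.55 (limma adjusted p = 0.0206 and 0.0456). MAP2K1, an activator of ERK, reached 1.14 and 1.29 (limma adjusted p = 0.0165 and 0.0180), and MAP2K7, an activator of JNK, 0.98 and 0.88 (limma adjusted p = 0.0343 and 0.0421).

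Few of the kinases themselves and of their other phosphatases passed the test. The shares of all genes were 7.27% rising and 7.85% falling with EEDS, and 5.48% and 5.8% with helveticoside. Single calls in lists of this size are about what those shares give. Of 12 MAP kinases, 1 fell with EEDS, MAPK12, a p38 isoform (slope −0.52 ± 0.12, limma adjusted p = 0.0463), which was well above background on 3 of 8 arrays, and 1 rose with helveticoside, MAPK13, another p38 isoform (0.40 ± 0.09, limma adjusted p = 0.0438). Of 11 MAP kinase-activated protein kinases, only MAPKAPK3, a substrate of p38, changed, with log2 ratios of −1.56 at 20 µg/mL and −1.59 at 60 nM (limma adjusted p = 0.0190 and 0.0202). Of 14 atypical dual-specificity phosphatases, relatives that lack the kinase-binding domain, DUSP21 rose with EEDS and DUSP19 fell with both agents, and each was well above background on 1 array only. The 3 tyrosine phosphatases of MAP kinases, PTPN5, PTPN7 and PTPRR, were well above background on no array. The median slopes of these 4 lists lay between −0.09 and 0.03 with either agent.

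**Figure D5:**
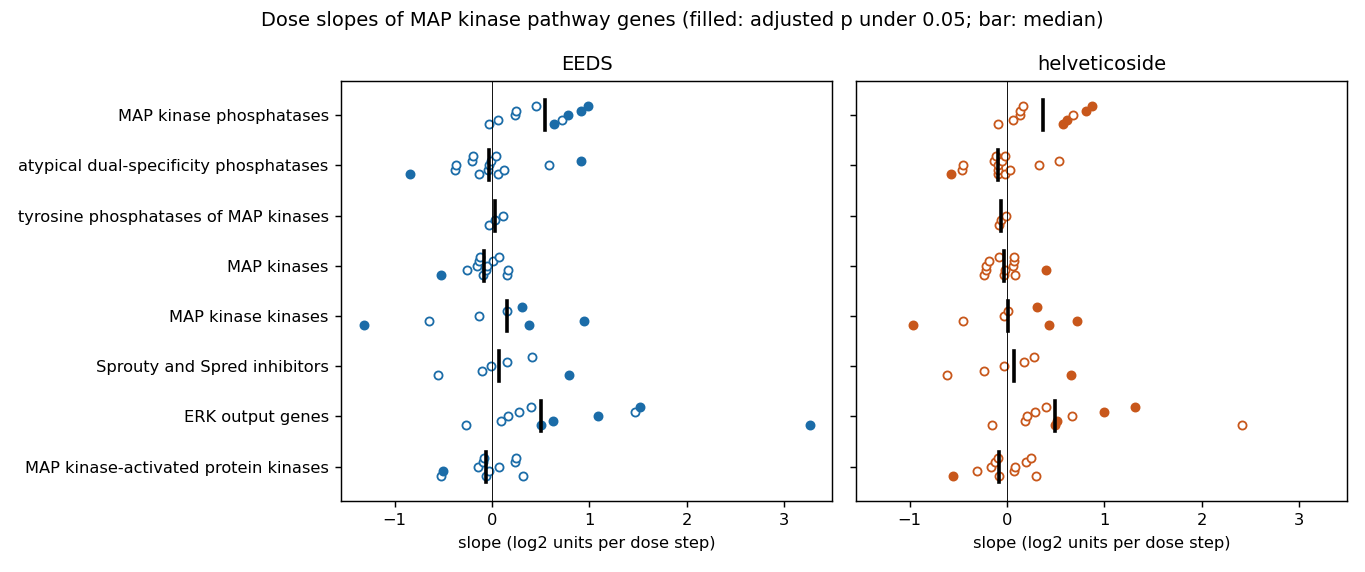
Slope in log2 units per dose step (x axis) of every measured gene of 8 lists of the MAP kinase system (y axis), 1 point per gene, filled where the limma adjusted p was under 0.05, with a bar at the list's median. The MAP kinase phosphatases and the ERK output genes have medians of 0.55 and 0.50 with EEDS and of 0.37 and 0.49 with helveticoside, and the other lists have medians from −0.09 to 0.15.

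For the 5 members that were well above background on all 8 arrays, the genes of nearest pattern were sought among 11498 genes that met the same condition, by the root mean square difference of the 6 log2 ratios. Nearest to DUSP1 was JUNB, an AP-1 subunit, with a difference of 0.13 and log2 ratios of 2.90 at 20 µg/mL of EEDS and 2.54 at 60 nM of helveticoside, and next was FAM83G with 0.15. Nearest to DUSP6 was IER2, an immediate early gene, with a difference of 0.14 and log2 ratios of 2.72 at 20 µg/mL and 1.84 at 60 nM, followed by THAP1 with 0.17. DUSP5 was most like FAM72A and FBXO36, at 0.19 and 0.20. DUSP8 was most like NXF1, at 0.17, and DUSP4 like HLA-E and ANKS1A, both at 0.04. These differences are a description over 6 arrays that share 2 controls.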

How the data were processed

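The authors extracted array signals with Agilent Feature Extraction, kept elements above 1.4-fold of local background and normalized them by the quantile method. The deposited scanner files gave signal intensity per spot, without replicates. The labels name Cy5 while the intensity columns are those of the green channel. Control spots and flagged outlier spots (246 to 331 per array) were left out, spots of a probe were averaged, and the processed intensity was quantile-normalized over all 8 arrays and taken to log2. Accessions in the files matched 24812 of 34127 probes to a gene through RefSeq tables. The brightest probe stood for a gene, genes needed at least 1 array per series above 1.4 times the local background, and 19046 genes remained. Trends were fitted with limma 3.58.1 in R 4.3.3 (trend and robust), which was tested on simulated data. A ratio against an array not well above background is a bound against the lowest probe signal that was well above background there. Such a bound applies to the main processing only, and some other treatments of the background gave smaller ratios. The number of arrays limits the precision. Residuals about the trend stand in for replicate spread, so p-values rest on the lines being straight.

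The genes named were all 10 members, the genes of each pathway list with an adjusted trend p under 0.05 (at most 4 a list), and the 2 genes nearest in pattern to each member well above background everywhere. One gene that this rule names is not reported here. Members and lists were chosen with earlier results of these data known. MAPK8 and SPRED3 were not analysed here. Alternatives changed the background correction, the scaling, the filter, the probes, the control, the predictor, the arrays fitted, the variance prior and the fold threshold. The authors' processed intensity table served as one of them; it held no fold changes.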

Additional observations from a re-analysis of the deposited data

Results flagged for a closer look

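DUSP9 lay above vehicle at all 3 EEDS doses and below vehicle at all 3 helveticoside doses, with log2 ratios of 0.75 at 20 µg/mL and −0.31 at 60 nM. The opposed directions drew attention. The difference of the slopes, −0.33 ± 0.11, had an unadjusted limma p of 0.0246 and an adjusted p of 1, so it did not pass the threshold. The probe was dim, 52.0 to 91.0 units of normalized signal, and not well above background at 3.75 nM, and the helveticoside direction turned with 3 other treatments of the background.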

How the results depend on the processing

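DUSP1, DUSP5, DUSP6 and DUSP10 had positive slopes with both agents in every alternative run, while the adjusted p of those slopes reached 0.279 at most. The number of members called for the EEDS trend, 4, was 4 or 5 under 9 of 13 alternatives and 0 in the other 4, which fitted the arrays of one series alone or left out the lowest, the middle or the top dose of each series. The helveticoside count, 4, was 3 or 4 under the same 9 and 0 in the same 4. With log dose the 4 were not the same genes, since DUSP2 was called with both agents and DUSP5 with neither. In those 4 fits 0 of all genes were called with either agent, with 4 to 6 members at an unadjusted limma p under 0.05. Leaving out each array in turn, chosen after seeing the data, gave 0 to 5 members with EEDS and 0 to 3 with helveticoside. Over all genes the EEDS trend was called for 2879, for 4600 with the authors' values and for 0 to 2625 without 1 array, and the helveticoside trend for 2147, for 1657 with the authors' values and for 0 to 1479 without 1 array. Among genes well above background on all 4 arrays of a series, the share called was higher, 3680 of 12818 with EEDS and 2768 of 11568 with helveticoside. The difference of the slopes was called for 0 members in every fit. No paired analysis was possible because each group has 1 array.

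The median member log2 ratio at 20 µg/mL, 1.71, was 1.17 with the signal as scanned, 1.19 with normexp, 1.38 with the authors' values and 2.04 against the other vehicle control. At 60 nM it was 1.22, and 0.54, 0.56 and 0.53 in the same first 3 settings. It was 1.84 over the members well above background on all 4 helveticoside arrays, DUSP1, DUSP4, DUSP5, DUSP6 and DUSP8. Of these, 3 (DUSP1, DUSP5 and DUSP6) were more than 2-fold above vehicle, where 10.8% of all genes were without this filter. Scaling to the 75th percentile moved the median of all genes to −0.36 at 20 µg/mL and −0.18 at 60 nM and turned no direction at these doses among the 9 members compared, DUSP7 being left out as not measured.

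Direction turned only in results that had passed no test. DUSP16 at 60 nM was −0.41 against the EEDS control. The DUSP8 slope without the top dose was −0.041 with EEDS and −0.0026 with helveticoside, and without 1 array it ran from −0.041 to 0.90 and from −0.0026 to 0.12. The DUSP4 slope with EEDS ran from −0.056 to 0.17. For DUSP9 with helveticoside the slope was 0.075, 0.093 and 0.080 and the 60 nM ratio 0.23, 0.29 and 0.25 with the scanned signal, normexp and the authors' values. The cause of these changes was not tested. DUSP2, DUSP7, DUSP9, DUSP10 and DUSP16 were not well above background on all arrays, which limits their ratios.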
